A study of Saccharomyces cerevisiae with 9 samples.

Results

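Transcripts of 39 budding yeast genes that act in cytoplasmic mRNA decay and in processing bodies were followed through freezing and thawing. The list holds deadenylases, decapping factors, the Lsm1 to Lsm7 ring, the 5′ to 3′ exonuclease with the cap scavengers, nonsense-mediated decay factors, the Ski complex, and proteins that bind poly(A) tails or messenger ribonucleoproteins (mRNPs). Genes were put on it by their known role, though earlier results of these data were known by then. Each of the 39 was represented by 1 probe set among the 5396 genes tested. DCS2, a stress-induced paralog of the cap scavenger gene DCS1, was the 1 member past the threshold, higher after 24 h and after 48 h frozen.

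The series, whose title names copper homeostasis and freeze-thaw injury, used BY4741, a laboratory strain of Saccharomyces cerevisiae of mating type a. All cells were grown in YPD medium at 30 °C to log phase (OD600 of 1), washed, and suspended in distilled water, so the control cells had also left their medium. The 3 groups were unfrozen cells, cells frozen at -30 °C for 24 h, and cells frozen at -30 °C for 48 h. Frozen cells were thawed for 10 min in a water bath at 30 °C before harvest, and each group had 3 arrays. Both comparisons with unfrozen cells use the same 3 unfrozen arrays, so their results are not independent. The labels mention independent triplicates in one place and 2 independent experiments in another. The p-values therefore cover the array-to-array spread, part of which could be technical.

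In yeast, most mRNAs are broken down after their poly(A) tail has been shortened by the Ccr4-Not and Pan2-Pan3 deadenylases. The Lsm1 to Lsm7 ring and Pat1 then bind the shortened 3′ end, Dcp2 with its activators removes the 5′ cap, and Xrn1 digests the body, while the exosome with the Ski complex degrades from the 3′ end. When translation initiation stops, as in cells deprived of glucose, untranslated mRNAs gather with the decapping proteins in cytoplasmic granules called processing bodies.

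Values below are log2 signals with the median S. cerevisiae probe set brought to a common level on every array, called scaled signals. Levels of different genes are not compared, because probe sets differ in how well they hybridise. The labelled strain was checked against a background threshold of 2.21 in scaled signal, the 95th percentile of fission yeast probe sets. Of the genes deleted in BY4741, URA3 (mean 0.68) and MET17 (2.04) lay under it, while LEU2 (2.62) lay above it, at 3.94, 4.19 and 3.69 on the 24 h arrays. The a-specific genes MFA1 (mean 12.20), MFA2 (11.92), STE2 (12.18) and BAR1 (10.10) were above it on all 9 arrays. So were the alpha-specific genes STE3 (5.83) and MF(ALPHA)2 (4.42). The alpha-specific MF(ALPHA)1 (2.42) fell under it on unfrozen replicate 2 (0.09), frozen 24 h replicate 1 (1.00) and frozen 48 h replicate 3 (1.73). By this threshold alone the check does not settle the mating type. Median deposited signals ran from 201 to 726, and the brightest frozen arrays were replicate 3 at 24 h (679) and at 48 h (726). The median over 17 control probe sets for ribosomal RNA (rRNA) was 5.45 to 7.02 in scaled signal on unfrozen arrays, 7.94 to 10.43 at 24 h and 7.64 to 9.80 at 48 h. That is a mean difference of 2.94 and 2.66, with an exact two-sided permutation p = 0.1 for each, the smallest that 3 arrays against 3 allow. This measure of RNA composition separated the frozen arrays from the unfrozen ones. Its part in the results was not tested beyond a fit that carries it as a covariate, which cannot tell it apart from freezing. The excess of 3′ over 5′ signal, a measure related to RNA integrity, was taken as the median over 7 control genes on each array. It was 0.86 on replicate 3 at 24 h and 0.93 on replicate 3 at 48 h, the 2 brightest frozen arrays, and 1.13 to 1.47 on the other 7 arrays. On these 2 brightest arrays, within each frozen group, members such as LSM5, SKI8, PAB1, CCR4 and CAF40 also had their lowest values. Others, among them LSM4, DCP1, DCP2, NMD2 and UPF3, had their highest values there. The part of RNA integrity in this was not tested. RNA was enriched on oligo(dT), so a lower transcript level and a shorter poly(A) tail cannot be told apart, nor can fewer cells with RNA and less RNA in each cell.

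After 24 h frozen, 1 of 39 members was higher and 0 were lower by limma at an adjusted p under 0.05, while 0.797% of all genes tested were higher and 0.204% lower. At an unadjusted p under 0.05 there were 2 members higher, DCS2 and DCS1, and 1 lower, LSM5, beside 6.8% of all genes higher and 3.93% lower, or 5.13% and 2.56% of the members. The frozen arrays lay wholly apart from the unfrozen ones for 3 members that were higher (DCS2, DCS1 and EDC2) and 3 that were lower (LSM5, PAB1 and PUB1). Among all genes these shares were 12.2% higher and 11.6% lower. The median difference of the members was -0.12, beside -0.02 for all genes, with 26 of 39 members below 0 against 52.7% of all genes.

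After 48 h frozen, again 1 of 39 members was higher and 0 were lower, beside 2.09% and 0.815% of all genes. Unadjusted p was under 0.05 for 3 members that were higher (DCS2, DCS1 and EDC2) and 2 that were lower (LSM5 and NOT3). These are 7.69% and 5.13% of the members, beside 9.97% and 6.45% of all genes. Arrays did not overlap for those 3 higher members, against 11.9% of all genes, and for 4 lower ones (NOT3, LSM1, LSM5 and LSM6), against 10.6%. The median difference of the members was -0.14, beside -0.03 for all genes, and 24 of 39 lay below 0 against 53% of all genes. The sign of these medians rests on the scaling: in the values as deposited the median over all genes was 0.28 at 24 h and 0.40 at 48 h, and the members' medians were 0.17 and 0.29. With arrays scaled to every probe set, the fission yeast ones included, all genes had medians of -0.34 and -0.37 and the members of -0.45 and -0.47. These 3 scalings differ by 1 constant per array, which moves all genes alike. The gap between the members' median and that of all genes is therefore nearly the same in each by construction.

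**Figure D1:**
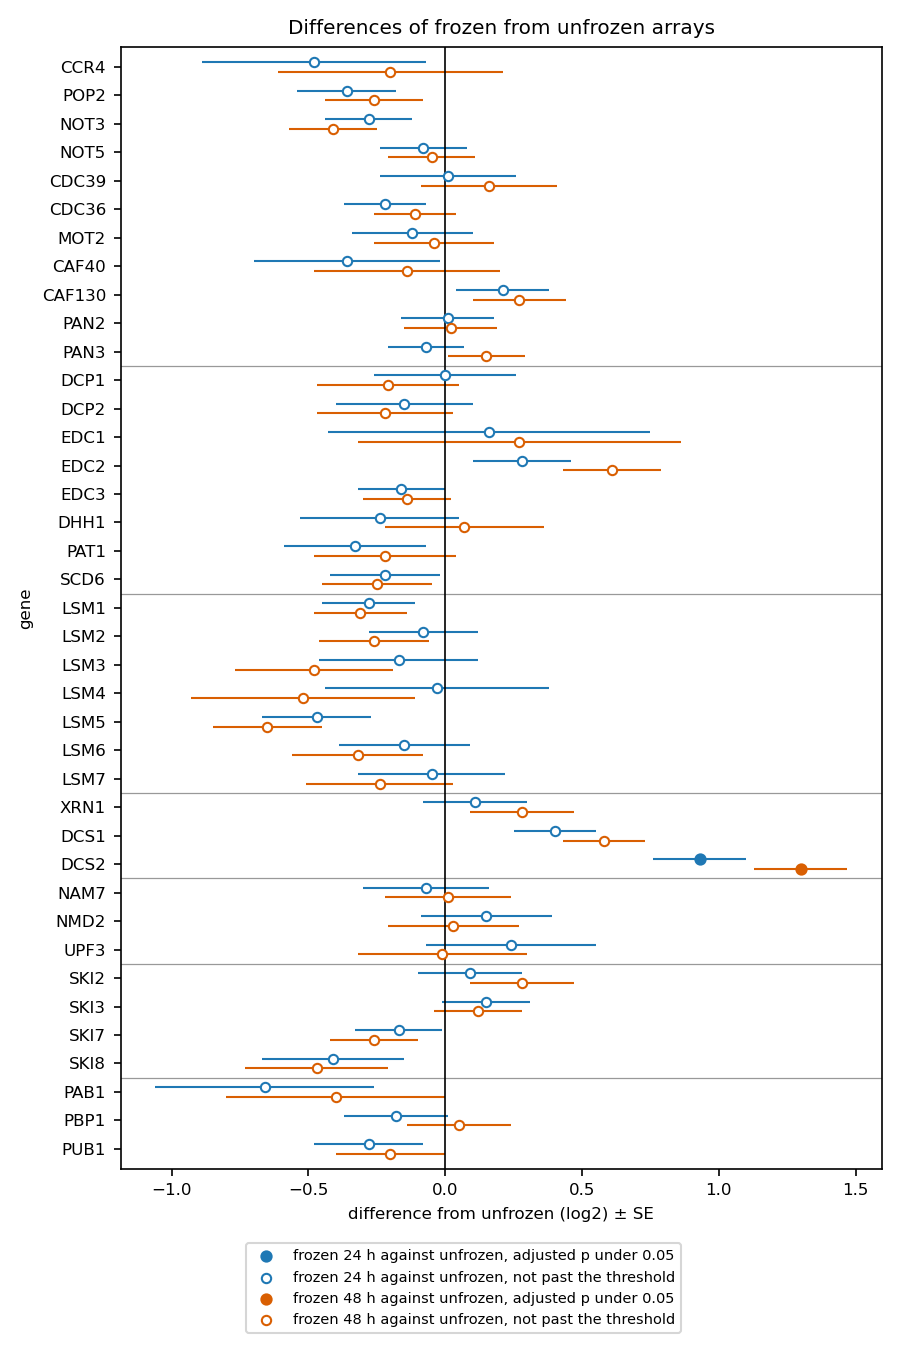
Difference of the frozen arrays from the unfrozen ones (log2, scaled signal) for each of the 39 members, blue for 24 h and orange for 48 h, with bars of 1 standard error and filled points for an adjusted p under 0.05. Horizontal lines part the role groups, and DCS2, at 0.93 and 1.30, carries the 2 filled points; most other signs depend on the scaling, as 26 members lay below 0 at 24 h here and 7 in the values as deposited.

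DCS2 stood first by p in each of the 3 comparisons. The product of DCS1 hydrolyses the short capped fragments left at the end of 3′ to 5′ decay, and that of DCS2 is a related protein without that activity of its own which binds Dcs1 and is known to be induced when nutrients run out. Scaled signals of DCS2 were 7.37, 7.45 and 7.29 on the unfrozen arrays, 8.08, 8.60 and 8.22 after 24 h, and 8.80, 8.71 and 8.50 after 48 h. Every frozen array lay above every unfrozen one, while the 24 h and 48 h arrays overlapped. DCS2 rose by 0.93 ± 0.17 at 24 h, or 1.90-fold (SE, n = 3 arrays per group, 95% interval 0.54 to 1.31, limma adjusted p = 0.0358). It rose by 1.30 ± 0.17 at 48 h, or 2.46-fold (95% interval 0.91 to 1.68, limma adjusted p = 0.00439).

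The 48 h call of DCS2 held in 21 of 24 alternatives (0.96 to 1.72) and the 24 h call in 9 of 24 (0.60 to 1.22), and the sign was the same in all of them. At 24 h the adjusted p was 0.154, 0.139 and 0.0774 without unfrozen replicate 1, 2 or 3 (0.93, 0.97 and 0.89), 0.0509, 0.144 and 0.118 without frozen 24 h replicate 1, 2 or 3 (1.04, 0.78 and 0.97), and 0.0819 without frozen 48 h replicate 2. Without replicate 1, 2 or 3 in every group it was 0.111, 0.87 and 0.0733 at 24 h (1.04, 0.82 and 0.93), and at 48 h the call was lost without replicate 2 (1.32, adjusted p = 0.264). Without the 2 brightest frozen arrays the differences were 0.97 (adjusted p = 0.0565) and 1.38 (adjusted p = 0.00639). With the rRNA signal as a covariate they were 0.85 and 1.22, but limma then called 0 of 5396 genes in either comparison. Because that signal parts every frozen array from every unfrozen one, the fit cannot tell it apart from freezing. DCS2 had adjusted p = 1 and 0.352 in that fit, and 1 of 39 members had an unadjusted p under 0.05 at each time.

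**Figure D2:**
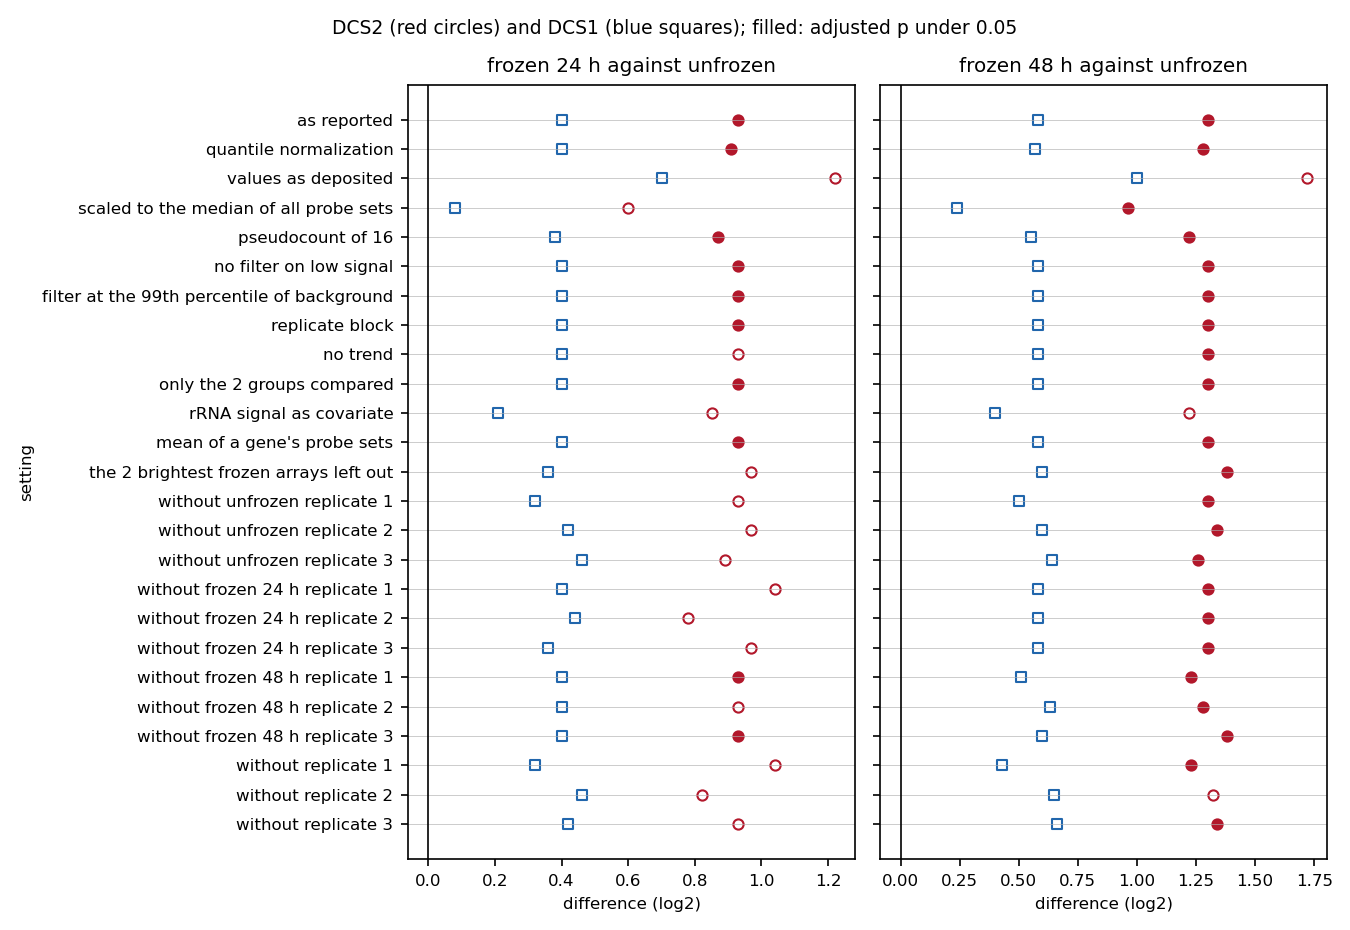
Difference of DCS2 (red circles) and of its paralog DCS1 (blue squares) from unfrozen arrays in log2 under each processing setting, at 24 h on the left and 48 h on the right, filled where the limma adjusted p was under 0.05. All points lie above 0, with DCS2 between 0.60 and 1.22 at 24 h and between 0.96 and 1.72 at 48 h, and no DCS1 point is filled.

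DCS1 had scaled signals of 8.02, 8.22 and 8.30 unfrozen, 8.59, 8.50 and 8.66 at 24 h, and 8.91, 8.66 and 8.71 at 48 h. Its frozen arrays, too, all lay above the unfrozen ones, and the 24 h and 48 h arrays met at 8.66. The differences were 0.40 ± 0.15 at 24 h (limma adjusted p = 0.318) and 0.58 ± 0.15 at 48 h (adjusted p = 0.0719), neither past the threshold. The difference between the paralogs was examined after their values were seen. Relative to its unfrozen mean, DCS2 minus DCS1 was 0.16, 0.04 and -0.20 on unfrozen arrays, 0.30, 0.90 and 0.37 at 24 h, and 0.70, 0.86 and 0.60 at 48 h. The groups did not overlap with unfrozen, and DCS2 exceeded DCS1 in its difference by 0.52 at 24 h and 0.72 at 48 h (two-sided exact permutation p = 0.1 for each, the smallest possible). XRN1, the cytoplasmic exonuclease that follows decapping, differed by 0.11 ± 0.19 and 0.28 ± 0.19 and overlapped with the unfrozen arrays at both times.

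**Figure D3:**
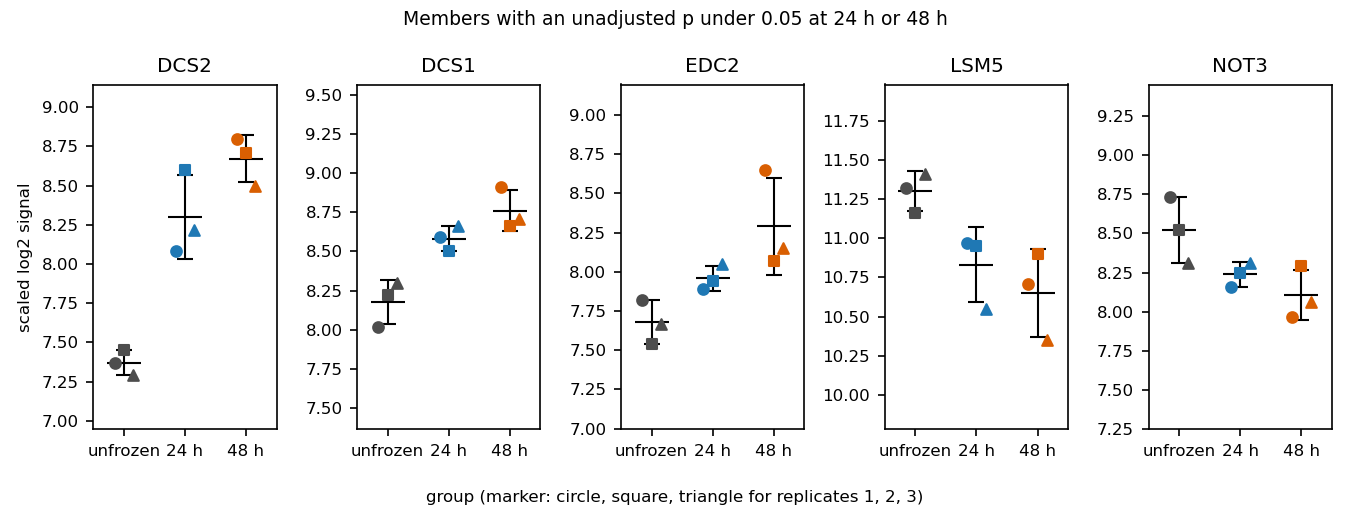
Scaled log2 signal of the 5 members with an unadjusted p under 0.05 at 24 h or 48 h, by group, with circles, squares and triangles for replicates 1, 2 and 3, the mean as a long line and 1 SD as bars, on vertical axes of equal span. DCS2 and DCS1 lie higher on all 6 frozen arrays, EDC2 also, LSM5 lies lower on all 6, and NOT3 meets its lowest unfrozen value at 24 h.

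Among the 8 genes of decapping, 0 passed the threshold at either time. For this role group and those below, a count of 0 is near the shares called over all genes (at 48 h 2.09% higher and 0.815% lower). The medians of the 8 genes were -0.15 at 24 h and -0.18 at 48 h (0.14 and 0.24 in the values as deposited). At 48 h this median was -0.01 without frozen 48 h replicate 1 and -0.08 without frozen 48 h replicate 3. EDC2, a small RNA-binding activator of Dcp2, had scaled signals of 7.82, 7.54 and 7.67 unfrozen, 7.89, 7.94 and 8.05 at 24 h, and 8.65, 8.07 and 8.15 at 48 h. The 3 groups did not overlap, with each 48 h array above each 24 h array. The differences of EDC2 were 0.28 ± 0.18 after 24 h and 0.61 ± 0.18 after 48 h, with limma adjusted p = 0.66 and 0.123. The sign at 24 h turned to -0.05 under the scaling to every probe set.

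EDC1, the paralog of EDC2, lay close to the background threshold of 2.21. Its scaled signals were 1.70, 2.76 and 2.90 unfrozen, 2.01, 3.37 and 2.45 at 24 h, and 3.17, 3.01 and 1.98 at 48 h. Each group held 1 array under 2.21, by each array's own 95th percentile of fission yeast probe sets EDC1 was at background on 7 of 9 arrays, and the groups overlapped, with differences of 0.16 ± 0.59 and 0.27 ± 0.59. The 95% intervals of both differences of EDC1 reached 2-fold, so a change of that size is not excluded. The other 38 members were above the threshold on all 9 arrays.

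The decapping enzyme itself did not pass the test. DCP2, the catalytic subunit, differed by -0.15 ± 0.25 and -0.22 ± 0.25, and DCP1, its cofactor, by 0.00 ± 0.26 and -0.21 ± 0.26. DHH1, a DEAD-box helicase that represses translation and favours decapping, differed by -0.24 ± 0.29 and 0.07 ± 0.29. PAT1, which joins the Lsm ring to the decapping enzyme, differed by -0.33 ± 0.26 and -0.22 ± 0.26. For the processing body scaffold EDC3 the differences were -0.16 ± 0.16 and -0.14 ± 0.16, and for the translational repressor SCD6 they were -0.22 ± 0.20 and -0.25 ± 0.20. Limma adjusted p for these 6 genes was at least 0.569.

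All 7 genes of the Lsm ring had differences below 0 in both comparisons, beside 52.7% of all genes at 24 h and 53% at 48 h. Their medians were -0.15 at 24 h and -0.32 at 48 h, and 0 of 7 passed the threshold. In the values as deposited 1 of 7 lay below 0 at 24 h and 3 of 7 at 48 h, and with the rRNA covariate 2 and 4 did. By array the ring's median was -0.59, -0.16 and -0.11 on 48 h replicates 1, 2 and 3. Without frozen 48 h replicate 1 the 48 h difference was -0.10 with 5 of 7 below 0, without frozen 48 h replicate 3 it was -0.48, and without unfrozen replicate 1 the 24 h difference was -0.02 with 5 of 7 below 0. LSM5 had scaled signals of 11.32, 11.16 and 11.41 unfrozen, 10.97, 10.95 and 10.55 at 24 h, and 10.71, 10.90 and 10.35 at 48 h. Its 6 frozen arrays all lay below the unfrozen ones, lowest on replicate 3 at both times. The differences of LSM5 were -0.47 ± 0.20 at 24 h (limma adjusted p = 0.446) and -0.65 ± 0.20 at 48 h (adjusted p = 0.143), below 0 in each of the 24 alternatives of either comparison. Without the 2 brightest frozen arrays they were -0.33 and -0.50.

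LSM1, the subunit that sets the cytoplasmic ring apart from the nuclear one, gave 9.92, 9.86 and 9.83 unfrozen, 9.83, 9.51 and 9.42 at 24 h, and 9.66, 9.70 and 9.32 at 48 h. At 48 h all its arrays lay below the unfrozen ones, and at 24 h replicate 1 overlapped with them. Its differences were -0.28 ± 0.17 and -0.31 ± 0.17 (limma adjusted p = 0.619 and 0.404). LSM1 (-0.65, adjusted p = 0.0452) and LSM5 (-0.98, adjusted p = 0.0199) passed the threshold at 48 h under the scaling to every probe set, which lowered all genes.

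LSM3 had scaled signals of 9.63, 9.35 and 9.42 unfrozen, 9.06, 9.37 and 9.47 at 24 h, and 8.21, 9.39 and 9.35 at 48 h. Its 48 h mean was set by replicate 1, and the other 48 h arrays lay at the lower end of the unfrozen range. The differences were -0.17 ± 0.29 and -0.48 ± 0.29 (limma adjusted p = 0.884 and 0.456). LSM4, whose protein has a tail that helps processing bodies assemble, differed by -0.03 ± 0.41 and -0.52 ± 0.41, and its 48 h arrays read 7.41, 8.63 and 9.40. LSM2 (-0.08 ± 0.20 and -0.26 ± 0.20), LSM6 (-0.15 ± 0.24 and -0.32 ± 0.24) and LSM7 (-0.05 ± 0.27 and -0.24 ± 0.27) completed the ring.

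Of the 11 deadenylase genes 0 passed the threshold at either time. At 24 h 8 lay below 0 and at 48 h 7, beside 52.7% and 53% of all genes. The medians were -0.12 and -0.05 (0.17 and 0.37 in the values as deposited). The 48 h median was -0.11 without frozen 48 h replicate 1 and 0.06 without frozen 48 h replicate 3. POP2, a deadenylase of the Ccr4-Not complex, had scaled signals of 10.03, 10.20 and 9.70 unfrozen, 9.40, 9.74 and 9.69 at 24 h, and 9.91, 9.70 and 9.55 at 48 h. Its groups overlapped, and it differed by -0.36 ± 0.18 (limma adjusted p = 0.528) and -0.26 ± 0.18 (adjusted p = 0.539). NOT3, a regulatory subunit of that complex, gave 8.73, 8.52 and 8.31 unfrozen, 8.16, 8.25 and 8.31 at 24 h, and 7.97, 8.29 and 8.06 at 48 h. The 48 h arrays of NOT3 lay below all unfrozen arrays, the nearest by 0.02 (8.29 against 8.31). The differences of NOT3 were -0.28 ± 0.16 (limma adjusted p = 0.607) and -0.41 ± 0.16 (adjusted p = 0.245).

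CCR4, the main catalytic deadenylase, differed by -0.48 ± 0.41 and -0.20 ± 0.41, with a wide spread at 48 h of 9.45, 8.63 and 7.62 on replicates 1, 2 and 3. CAF40, another subunit of the complex, spread in the same way at 48 h, at 9.83, 9.50 and 8.43, and differed by -0.36 ± 0.34 and -0.14 ± 0.34. CDC39, the scaffold on which the complex is built, differed by 0.01 ± 0.25 and 0.16 ± 0.25. CDC36 (-0.22 ± 0.15 and -0.11 ± 0.15), NOT5 (-0.08 ± 0.16 and -0.05 ± 0.16) and the ubiquitin ligase MOT2 (-0.12 ± 0.22 and -0.04 ± 0.22) lay within 1.5 standard errors of 0. CAF130 stood at 0.21 ± 0.17 and 0.27 ± 0.17. The other deadenylase consists of the nuclease PAN2, at 0.01 ± 0.17 and 0.02 ± 0.17, and its partner PAN3, at -0.07 ± 0.14 and 0.15 ± 0.14.

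Nonsense-mediated decay removes mRNAs with premature stop codons and had 0 of 3 genes past the threshold, with medians of 0.15 and 0.01 (-0.17 and -0.33 when scaled to every probe set). Without frozen 48 h replicate 1 or 3 its 48 h median was 0.26 or -0.24. The helicase gene NAM7, also called UPF1, differed by -0.07 ± 0.23 and 0.01 ± 0.23. Its partners NMD2 (0.15 ± 0.24 and 0.03 ± 0.24) and UPF3 (0.24 ± 0.31 and -0.01 ± 0.31) overlapped with the unfrozen arrays too. The Ski complex, which feeds mRNAs into the exosome, also had 0 of 4 past the threshold, with medians of -0.04 and -0.07 (0.25 and 0.35 in the values as deposited).

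SKI8, a WD-repeat subunit that also acts in meiotic recombination, had scaled signals of 9.62, 9.36 and 9.78 unfrozen, 9.38, 9.42 and 8.73 at 24 h, and 9.43, 9.29 and 8.62 at 48 h. Replicate 3 was the lowest array at both times, and of the other frozen arrays 1, replicate 2 at 48 h, lay below the unfrozen range. The differences of SKI8 were -0.41 ± 0.26 and -0.47 ± 0.26 (limma adjusted p = 0.641 and 0.407), and -0.19 and -0.23 without the 2 brightest frozen arrays. The helicase SKI2 (0.09 ± 0.19 and 0.28 ± 0.19) and the scaffold SKI3 (0.15 ± 0.16 and 0.12 ± 0.16) stood above 0. SKI7, which bridges the complex to the exosome, stood at -0.17 ± 0.16 and -0.26 ± 0.16.

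PAB1, the main poly(A)-binding protein, had scaled signals of 11.37, 11.46 and 11.25 unfrozen, 10.97, 11.07 and 10.06 at 24 h, and 11.66, 11.22 and 9.99 at 48 h. All 24 h arrays lay below the unfrozen ones, whereas at 48 h replicate 1 lay above them and replicate 3 was the lowest of all 9. PAB1 differed by -0.66 ± 0.40 (limma adjusted p = 0.627, and -0.34 without the 2 brightest frozen arrays) and -0.40 ± 0.40 (adjusted p = 0.651). PUB1, a poly(U)-binding protein of stress granules, differed by -0.28 ± 0.20 and -0.20 ± 0.20, and its 24 h arrays did not overlap with unfrozen. PBP1, a Pab1-binding protein related to human ataxin-2, differed by -0.18 ± 0.19 and 0.05 ± 0.19. The group of 3 had 0 past the threshold and medians of -0.28 and -0.20, which turned to 0.02 and 0.23 in the values as deposited. The 48 h median was -0.42 without frozen 48 h replicate 1 and 0.08 without frozen 48 h replicate 3.

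Between the arrays frozen for 48 h and those frozen for 24 h, 0 of 39 members passed the threshold by limma and 0 had an unadjusted p under 0.05. Over all genes 0% were higher and 0% lower at an adjusted p under 0.05, and 13 higher and 9 lower at an unadjusted one. The smallest p among the members belonged to DCS2, at 0.37 ± 0.17 (adjusted p = 1), and EDC2, at 0.33 ± 0.18 (adjusted p = 1). EDC2 and PAN3 (0.22 ± 0.14) were the 2 members whose 48 h arrays all lay above the 24 h arrays, against 1.59% of all genes, and 0 lay the other way, against 1.3%. The median was 0.07, beside 0.01 for all genes, and moved to 0.00 without frozen 48 h replicate 1 and to 0.17 without frozen 48 h replicate 3. The 7 Lsm genes lay below 0 here, between -0.50 and -0.03, beside 47.7% of all genes, and 6 of 7 did in the values as deposited. In some alternatives LSM1, LSM3, LSM4 and LSM7 turned above 0, reaching 0.10, 0.07, 0.04 and 0.19, while LSM2, LSM5 and LSM6 did in none. This comparison shares its arrays with those against unfrozen cells and is not independent of them.

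**Figure D4:**
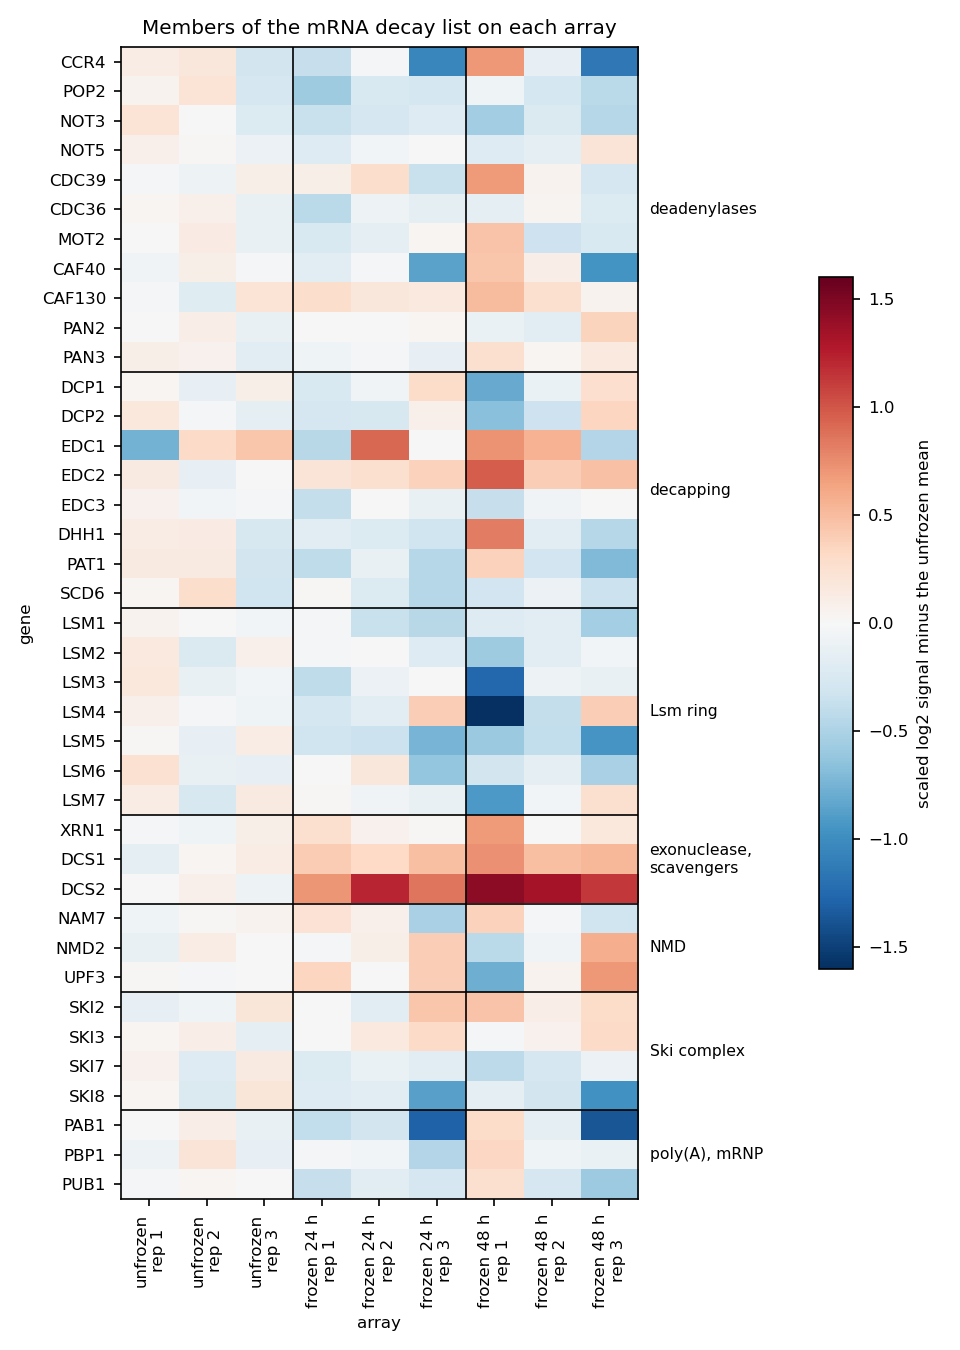
Scaled log2 signal of each member on each of the 9 arrays minus its unfrozen mean, red above and blue below, with members in rows by role and arrays in columns by group. DCS2 is red on all 6 frozen arrays, while many rows at 48 h change colour between replicate 1 and replicate 3, as CCR4 does from 9.45 to 7.62; colours of weakly shaded rows shift with the scaling.

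The spread within a group was widest at 48 h. The range over 3 arrays had a median over the members of 0.27 unfrozen, 0.38 at 24 h and 0.58 at 48 h, beside 0.31, 0.45 and 0.69 over all genes. It exceeded 1 for 1 member unfrozen, for 3 at 24 h and for 13 at 48 h, or 33.3% of members beside 29.7% of all genes. At 48 h, replicate 1 lay below replicate 3 for 7 of these 13, LSM4 (-1.99), UPF3 (-1.49), LSM7 (-1.17), LSM3 (-1.14), DCP1 (-1.08), DCP2 (-1.02) and NMD2 (-1.01). It lay above for the other 6, CCR4 (1.83), PAB1 (1.66), CAF40 (1.40), DHH1 (1.27), EDC1 (1.19) and PAT1 (1.08). Replicate 2 lay between them in 12 of 13, and the 24 h arrays differed with the same sign in 11 of 13. Over the members, replicate 1 minus replicate 3 at 24 h and at 48 h correlated at r = 0.60 (n = 39 genes), beside 0.74 over all 5396 genes. Points of this description share their arrays and are not independent. For DCS2 and DCS1 this difference was 0.30 and 0.19 at 48 h.

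**Figure D5:**
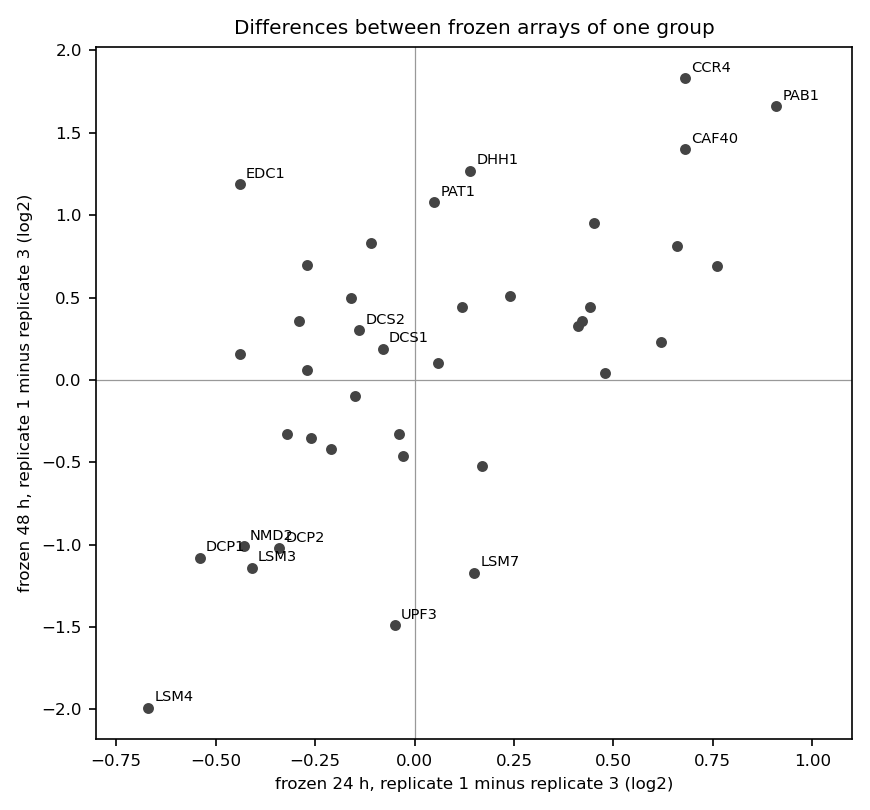
Replicate 1 minus replicate 3 in log2 among the 24 h arrays (horizontal) and among the 48 h arrays (vertical), 1 point per member, with names for members beyond 1 at 48 h and for DCS1 and DCS2. LSM4 lies at the lower left (-1.99 at 48 h) and CCR4 and PAB1 at the upper right (1.83 and 1.66), with r = 0.60 over the 39 members.

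Under the scaling used here, which sets the median S. cerevisiae probe set equal on all arrays, precision was enough to bound most members. The bounds were not computed under the other scalings, which moved the differences. The 95% interval of the difference stayed inside 2-fold in either direction for 34 of 39 members at 24 h (87.2%, beside 71.2% of all genes). It reached 2-fold for CCR4, CAF40, EDC1, DCS2 and PAB1. At 48 h 30 of 39 stayed inside (76.9%, beside 67.1%), and CCR4, EDC1, EDC2, LSM3, LSM4, LSM5, DCS2, SKI8 and PAB1 reached it. A smaller change of the other members is not excluded by these arrays.

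The lists of neighbouring steps of RNA decay held no called gene. Over all genes, limma called 0.797% higher and 0.204% lower at 24 h, and 2.09% and 0.815% at 48 h. Counts of 0 in lists this small are near those shares. Of 18 genes of the exosome and its nuclear cofactors, 0 were called by limma at 24 h or 48 h, with medians of -0.02 and -0.18. At an unadjusted p under 0.05 there were 0 at 24 h and 3 at 48 h. These 3 were all lower, or 16.7% of the list beside 6.45% of all genes. At 48 h 15 of 18 lay below 0, beside 53% of all genes. By array the median of this list at 48 h was -0.29, -0.07 and -0.14 on replicates 1, 2 and 3. Signs and medians of the neighbouring lists were not computed under the other scalings, which moved all genes. RRP45, a ring subunit of the exosome, differed by -0.35 ± 0.17 at 24 h (adjusted p = 0.509) and by -0.68 ± 0.17 at 48 h (adjusted p = 0.0659), with all 6 frozen arrays below the unfrozen ones. The next smallest p in this list belonged to PAP2, a poly(A) polymerase of the nuclear TRAMP complex, at 24 h (-0.30 ± 0.17) and to RRP4, an exosome cap subunit, at 48 h (-0.44 ± 0.16).

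Of 18 listed RNA-binding regulators of decay 17 were measured, with 0 called and medians of -0.04 and 0.03. At an unadjusted p under 0.05, 1 was lower at 24 h and 3 at 48 h, and 0 were higher. These are 5.88% and 17.6% of the list, beside 3.93% and 6.45% of all genes. HEK2, which binds mRNAs localised to the bud, differed by -0.73 ± 0.29 and -0.74 ± 0.29 (limma adjusted p = 0.389 and 0.249). PUF3, a regulator of mRNAs for mitochondrial proteins, differed by 0.89 ± 0.48 at 24 h from an unfrozen level near background (2.76, 2.30 and 2.41). VTS1, which recruits deadenylases to stem loops, differed by -0.58 ± 0.25 at 48 h.

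Of 14 listed translation initiation and stress granule genes 13 were measured, with 0 called and medians of -0.18 and -0.08. At an unadjusted p under 0.05, 1 was lower at each time and 0 were higher. That is 7.69% of the list, beside 3.93% of all genes at 24 h and 6.45% at 48 h. DED1, a helicase of translation initiation, differed by -0.95 ± 0.37 and -0.94 ± 0.37 (limma adjusted p = 0.363 and 0.242). HRP1, which acts in 3′ end formation, differed by 0.27 ± 0.15 at 24 h, and CDC33, the cap-binding initiation factor, by -0.54 ± 0.27 at 48 h. The 4 genes of nuclear 5′ to 3′ decay and the nuclear Lsm ring had 0 called (0 and 0 at an unadjusted p under 0.05) and medians of -0.02 and -0.33. By array, the median of these 4 genes at 48 h was -0.76, -0.02 and 0.04 on replicates 1, 2 and 3. Among them RAI1, the partner of the nuclear exonuclease Rat1, differed by -0.23 ± 0.22 and -0.33 ± 0.22, RAT1 itself by 0.14 ± 0.14 at 24 h, and DXO1, which acts on incompletely capped mRNAs, by -0.33 ± 0.18 at 48 h.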

How the data were processed

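Per the labels, poly(A)-enriched RNA was hybridised to 9 Yeast Genome 2.0 arrays made by Affymetrix. The deposited intensity of each probe set is linear and comes from GCOS per the submitters' processing notes, whose version is not given in the sources used here. GeneSpring 7.3.1 with per-chip and per-gene normalization is named in the sample descriptions, but array medians differ and no ratio to unfrozen is seen in the deposited values.

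Of 10928 probe sets, 5498 carried 1 S. cerevisiae gene in the platform's annotation, with symbols updated through the RefSeq gene table. Signals were log2-transformed and shifted so that the median of these probe sets was equal on all arrays. Probe sets with a mean above 2.21, the 95th percentile of the 1746 fission yeast probe sets, were kept (4.64 on the linear scale), the brightest per gene, which left 5396 genes. Groups were compared with limma 3.58.1 in R 4.3.3 (all 9 arrays, trend, two-sided, Benjamini-Hochberg over all genes, adjusted p under 0.05), after a test on simulated data. Differences are log2, frozen minus unfrozen or 48 h minus 24 h, with SE from the fit. The number of arrays limits the precision.

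The members and gene lists were chosen with earlier results of these data known. Values on all 9 arrays are given for members past the threshold, the 8 with the smallest p at 24 h and at 48 h, the 2 for 48 h against 24 h, and the pairs DCS1 with DCS2 and EDC1 with EDC2. For each other list the 2 genes with the smallest p in each comparison with unfrozen are named. Alternatives were other scalings, filters, a pseudocount of 16, other models, averaged probe sets, and arrays left out. No 2 arrays shared more than 0.00915% of values. Replicate numbers pair the frozen arrays by the data alone, since same-numbered arrays at 24 h and 48 h deviated together (r = 0.59, 0.39 and 0.79); with the unfrozen arrays they did not (-0.38 to 0.25). Of the listed genes, NGR1 and RIE1 were not analysed here.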

Additional observations from a re-analysis of the deposited data

How the results depend on the processing

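DCS2 was the called member in every setting that called 1. At 24 h the count of members called, 1 as reported, was 0 in the values as deposited, scaled to every probe set, without a trend (DCS2 adjusted p = 0.0504), with the rRNA covariate and without the 2 brightest frozen arrays, and 0 to 1 with arrays or replicate numbers left out. At 48 h it was 0 as deposited and with the rRNA covariate, 3 scaled to every probe set (DCS2, LSM1 and LSM5), and 0 to 1 with arrays left out. The members' median at 24 h (-0.12) was 0.17 as deposited and -0.45 scaled to every probe set, and -0.16 to -0.03 with arrays left out. At 48 h (-0.14) it was 0.29, -0.47, -0.07 with the rRNA covariate and -0.06 without the 2 brightest frozen arrays, and -0.16 to -0.06 with arrays left out (nearest to 0 without frozen 48 h replicate 3). For 48 h against 24 h (0.07) it was 0.19 as deposited and 0.00 to 0.17 with arrays left out, and 0 members were called in all 25 alternatives. With the replicate block, DCS2 stood at 0.93 (adjusted p = 0.0292) and 1.30 (adjusted p = 0.00416), and the block changed no member's call, nor did a block on the frozen arrays alone, chosen after seeing the data. The values as deposited and those scaled to every probe set differ from the reported ones by 1 constant per array, which moves all genes alike. The cause of those array constants and of the other shifts was not tested. The difference in rRNA control signal kept its direction in each setting run. Signal over background limits EDC1 alone among the members.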
